A study of Mus musculus with 6 samples.

Results

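The 45 genes described here encode complement and coagulation factors with their receptors and regulators. They were chosen by symbol from a list that covers the classical, lectin, alternative and terminal complement pathways, complement receptors and regulators, clotting factors, anticoagulants and fibrinolysis. All 45 were found among the 22183 genes of the table. Messenger RNA was sequenced from mouse kidney in 6 libraries. The control group holds 3 libraries of mice transfected with pcDNA3, a plasmid without an insert. The Wnt1 group holds 3 libraries of mice that received a Wnt1 plasmid, given in the labels as overexpression of that gene. Wnt1 is a signalling protein that cells secrete to stabilise beta-catenin in their neighbours. The title of the series names acute kidney injury and its progression to chronic disease. Strain, age, sex, any injury procedure, the promoter on the plasmid and the time after delivery are not given there, and nothing in the labels says that the libraries came from separate animals. The p-values therefore measure only the spread between these libraries, which may be technical.

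Complement is a cascade of plasma proteases. The classical pathway starts when C1q binds antibody, dying cells or debris, the lectin pathway when mannose-binding lectins bind sugars, and the alternative pathway amplifies any C3 that has been cleaved. All routes converge on C3, whose fragments coat targets and attract leukocytes, and on the terminal components that form a membrane pore. Coagulation is a second cascade that begins when tissue factor meets factor VII, passes through factor X and thrombin, and ends in fibrin. Protein C and tissue factor pathway inhibitor restrain it, and plasminogen activators dissolve the clot. The liver makes most of the circulating proteins of both systems, while macrophages, endothelium and kidney tubules make some of them locally.

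Total counts per library ran from 23585031 to 27218096. Reads of Wnt1 itself were 0, 0 and 0 in controls and 0, 1 and 0 in Wnt1 replicates 1, 2 and 3, so the plasmid gene did not check the labels. Markers of the proximal tubule, the main cell type of the kidney cortex, summed to between 33896 and 40804 CPM (counts scaled to a common library size and composition) in controls, against 5753 to 9100 CPM in the Wnt1 group. A single gene, Kap, held 17720 to 24664 CPM of this sum in controls and 2345 to 4373 CPM with Wnt1. Of the 11 markers, 10 were called lower. Control replicate 3 and Wnt1 replicate 3 stood apart from the other 4 libraries on the second principal component, which held 14.7% of the variance. Results that move without them are given beside the member concerned.

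Most complement and coagulation transcripts that could be tested were higher with the Wnt1 plasmid, among them C3, Cfp, F13a1, C6, F7, the anaphylatoxin receptors and the C1q chains, and a smaller group that included F2, Proc, F5 and Cd55 was lower. Of the 45 members, 39 passed the filter on low counts and 6 (Mbl2, Cfd, Hc, C9, Vsig4 and Plg) did not. Of the 39, 23 rose, 6 fell and 10 were not called by edgeR at an adjusted p under 0.05. Among all 14432 tested genes 41.1% were called, 22.4% higher and 18.7% lower, against 59.0% higher and 15.4% lower of the tested members. The median log2 fold change, Wnt1 over control, was 1.11 for the tested members and 0.05 for all tested genes. Scaling by library totals alone moved the median of all genes to 0.47; 44.0% of all genes were then called higher and 8.92% lower, with 26 members higher and 5 lower. Changes of at least 2-fold were called for 26 members, and for 22.8% of all tested genes. The 26 complement genes gave 13 higher and 2 lower of 21 tested, with a median of 2.36, and the 19 clotting and fibrinolysis genes 10 higher and 4 lower of 18 tested, with a median of 0.89.

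Groups did not overlap for 31 of the 39 tested members, 23 with all Wnt1 libraries above all controls and 8 with all below. Over all tested genes these shares were 28.2% above and 25.3% below.

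**Figure D1:**
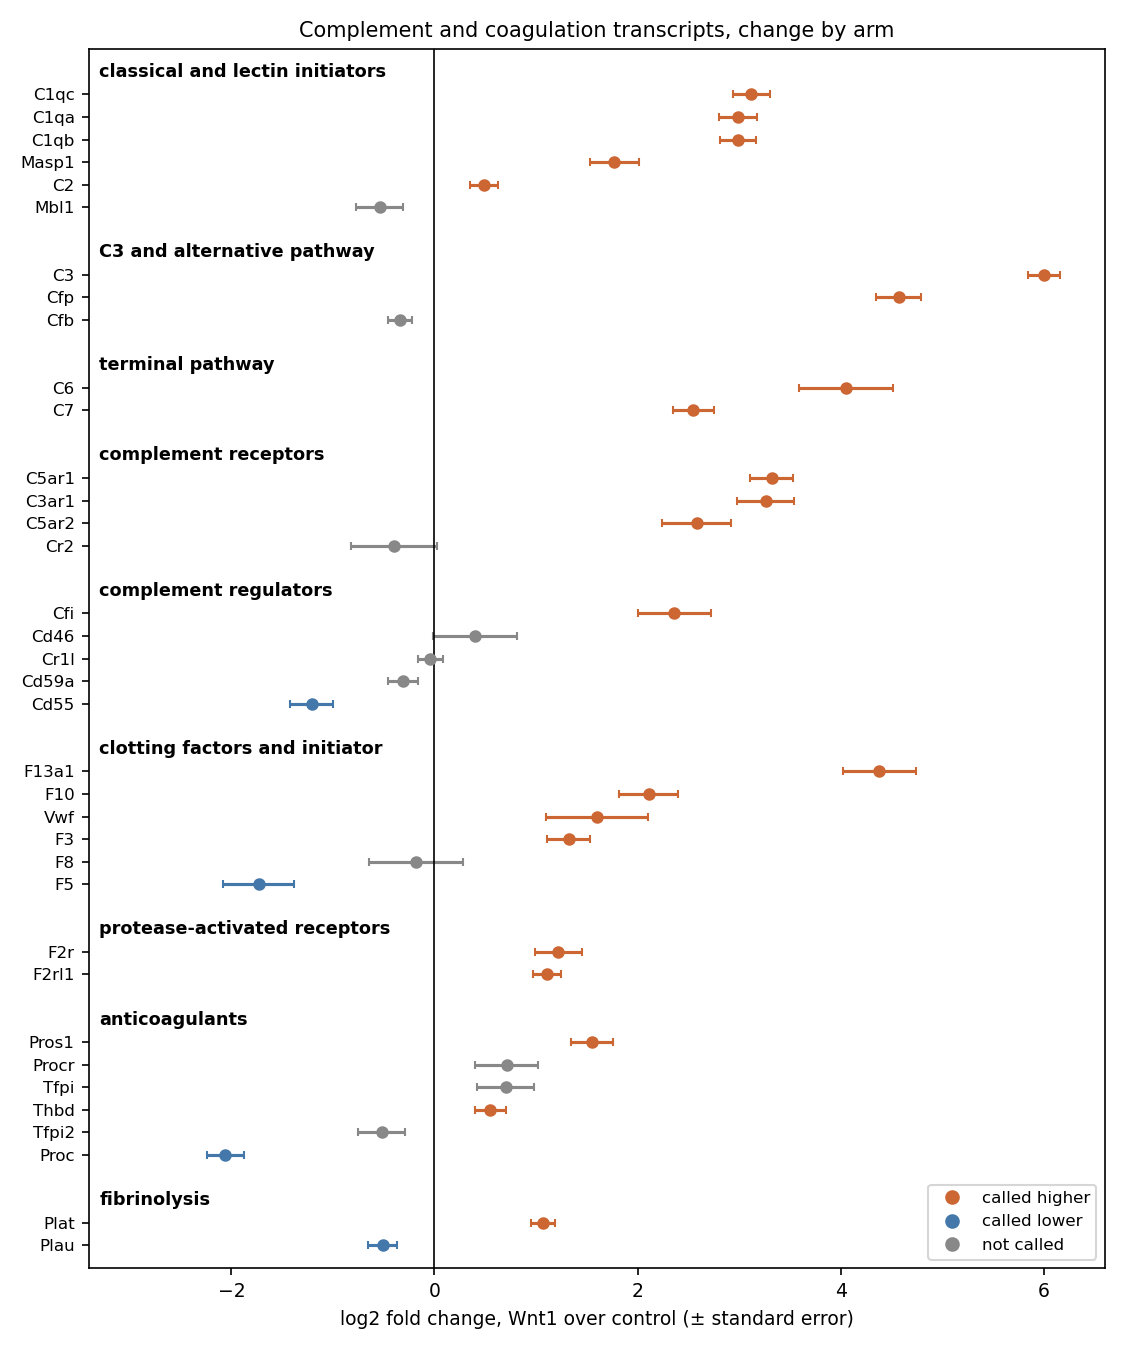
Log2 fold change (horizontal axis, Wnt1 over control) of 36 tested members, grouped by arm, with bars for the standard error; orange marks genes called higher, blue called lower and grey not called. C3 lies farthest to the right at 6.0 and Proc farthest to the left at -2.06; Masp2, F2 and F7 had too few counts in a group for a fitted fold and are left out.

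The 3 chains of C1q, the recognition molecule of the classical pathway, rose together. C1qa stood at 31.8, 26.5 and 38.3 CPM in control replicates 1, 2 and 3 and at 213, 267 and 286 CPM in Wnt1 replicates 1, 2 and 3. C1qb stood at 31.3, 23.9 and 31.2 CPM in controls and at 192, 243 and 251 CPM with Wnt1. C1qc had 25.6, 21 and 28.7 CPM in controls and 180, 233 and 241 CPM with Wnt1. All Wnt1 libraries lay far above all controls for each chain. The log2 fold changes were 2.99 ± 0.19 (SE) for C1qa, 2.99 ± 0.18 for C1qb and 3.12 ± 0.18 for C1qc (edgeR adjusted p = 4.1e-05, 3.16e-05 and 3.16e-05). On the length-corrected FPKM scale the ratio of C1qb to C1qa was 0.779 to 0.942 in controls and 0.840 to 0.868 with Wnt1. The ratio of C1qc to C1qa was 0.648 to 0.697 in controls and 0.730 to 0.754 with Wnt1. The first pair of ranges overlapped and the second did not. The chains' levels rose 7.93-fold, 7.93-fold and 8.68-fold. In GRCm38 the genes lie side by side on the minus strand of chromosome 4, with C1qb at 136880129 to 136886187, C1qc at 136889804 to 136893065 and C1qa at 136895917 to 136898803. Gaps of 3616 and 2851 bases separate them.

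C1q in tissue is known as a product of macrophages, and macrophage markers were higher in the same libraries. Of the 12 markers listed, 11 were tested, 10 rose and 1 (Mertk) fell, and their summed level was 218 to 233 CPM in controls and 1305 to 1539 CPM with Wnt1. The summed C1q chains were 71.5 to 98.2 CPM and 586 to 778 CPM. Set against the macrophage sum, C1q was 0.328 to 0.421 in controls and 0.449 to 0.544 with Wnt1, ranges that lie close together without overlap. The make-up of that sum differed between groups. Csf1r (89.6 ± 7.79 CPM) and Mertk (54.9 ± 3.73 CPM) were its highest genes in controls. Lyz2 gave most of it with Wnt1 (879 ± 64.4 CPM, against 44.8 ± 7.14 CPM in controls). Ratios to this sum, also those given below for C3ar1 and F13a1, therefore do not compare like with like between groups. Against Adgre1, which encodes the macrophage surface protein F4/80, the ratio was 7.39 to 11.9 in controls and 9.30 to 9.73 with Wnt1. Against Csf1r, the receptor for macrophage colony-stimulating factor, it was 0.799 to 1.08 and 3.75 to 4.12. In these bulk samples a change in the number of cells of a type and a change in RNA per cell cannot be told apart.

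**Figure D2:**
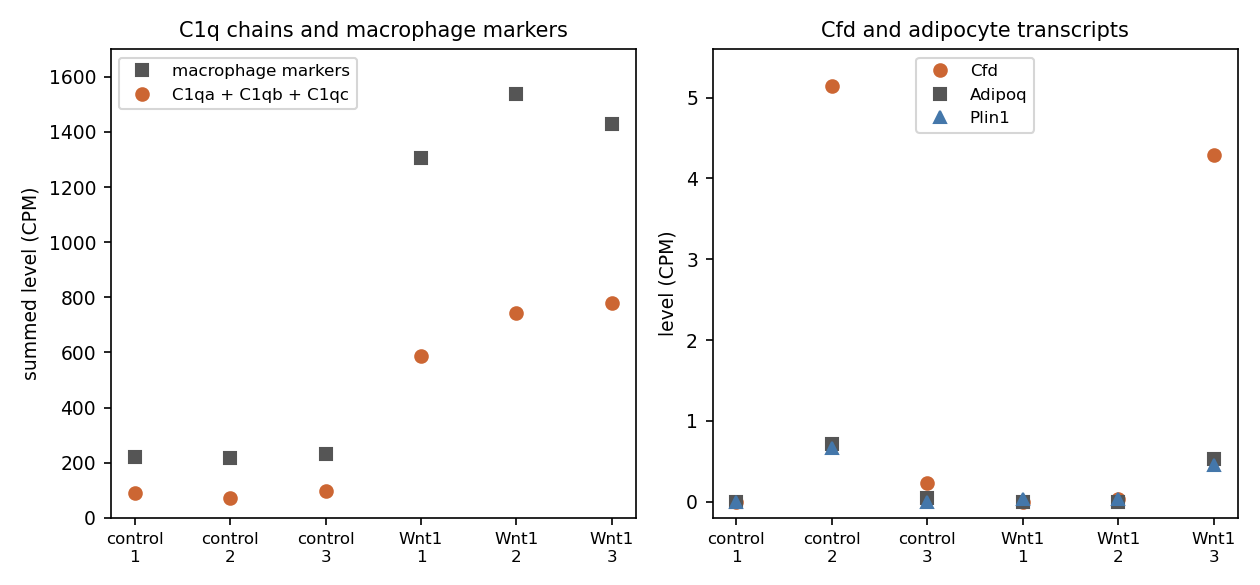
Left, summed level in CPM of 12 macrophage markers (squares) and of the 3 C1q chains (circles) in each of the 6 libraries; C1q reached 586 to 778 CPM in the Wnt1 libraries and 71.5 to 98.2 CPM in controls. Right, level in CPM of Cfd (circles) and of the adipocyte genes Adipoq (squares) and Plin1 (triangles); all were highest in control replicate 2 and Wnt1 replicate 3.

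The lectin arm did not move as one. Masp1, a protease of the lectin pathway, stood at 6.25, 3.50 and 3.79 CPM in controls and 14.5, 15.6 and 16.1 CPM with Wnt1, with no overlap, and rose by 1.77 ± 0.24 on the log2 scale (adjusted p = 0.000831). Masp2, the protease that cleaves C4 and C2 in this pathway, had 10, 32 and 14 reads in controls and 0, 2 and 0 with Wnt1. It was called lower (edgeR adjusted p = 0.00346). Controls were 36.4-fold higher, with an exact 95% interval of 9.62 to 308 for counting error only. Exons of Masp2 and Tardbp overlap by 1817 bases on opposite strands, and Tardbp was called higher (log2 fold change 0.64). The strand used in counting is not given, and the part of shared reads was not tested. Mbl1, a mannose-binding lectin, was measured at 3.44 ± 0.524 CPM (SD, n = 3) and 2.36 ± 0.339 CPM and was not called (log2 fold change -0.54 ± 0.23, adjusted p = 0.1). Mbl2, the other such lectin, had 7, 10 and 13 reads in controls and 1, 4 and 1 with Wnt1. It was under the filter. With no filter its log2 fold change was -2.55 (edgeR adjusted p = 0.0225), and DESeq2 gave -2.72 (adjusted p = 0.0267).

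C2, which the classical and lectin proteases cleave to form the C3 convertase, rose less. It stood at 56.8 ± 3.48 CPM in controls and 79.6 ± 11.9 CPM with Wnt1, a log2 fold change of 0.49 ± 0.14 (adjusted p = 0.0281).

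C3, the component on which all routes converge, had the largest fitted rise of the members. Its levels were 25.9, 29.1 and 26.4 CPM in control replicates 1, 2 and 3 and 1729, 1911 and 1587 CPM in Wnt1 replicates 1, 2 and 3. The lowest Wnt1 library lay far above the highest control. The log2 fold change was 6.0 ± 0.16, or 64.2-fold (adjusted p = 4.94e-06), and it ran from 5.93 to 6.43 over 16 alternative analyses. C3 (ENSMUSG00000024164) lies on chromosome 17, 57203970 to 57228136, on the minus strand. Cfp, on the X chromosome (20925454 to 20931555), encodes properdin, which stabilises the alternative C3 convertase and is made by leukocytes. It went from 0.966, 1.06 and 1.28 CPM to 21.7, 31.4 and 25.7 CPM, again without overlap (4.57 ± 0.22, adjusted p = 2.22e-05).

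Cfb, encoding factor B, the protease of the alternative convertase, did not follow C3. It stood at 517, 494 and 521 CPM in controls and at 376, 394 and 438 CPM with Wnt1, so all Wnt1 libraries were below all controls. The change was not called (log2 fold change -0.34 ± 0.12, adjusted p = 0.0503). It was called lower without Wnt1 replicate 3 (-0.41, adjusted p = 0.00959), without both libraries numbered 3 (-0.40, 0.00761), by DESeq2 (-0.38, 0.0209) and with median-ratio factors (-0.37, 0.0374), in a range of 0.00761 to 0.565 over the alternatives. Its direction depended on scaling: the authors' FPKM values were 166 ± 4.41 and 175 ± 10.1, with overlapping groups. A ratio within a library does not depend on scaling, and Cfb was 25.1 to 38.6 times C3 in FPKM in controls and 0.370 to 0.497 times C3 with Wnt1. Only 85 bases separate Cfb from C2 on chromosome 17, and both share exons with the gene model Gm20547, which was at 0 in all 6 libraries.

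Cfd encodes factor D, also called adipsin, which cleaves factor B and is known as a product of fat cells. Its reads were 0, 116 and 5 in controls and 0, 1 and 113 with Wnt1, so 1 library of each group held nearly all of them and it was under the filter. Adipocyte genes, listed after the values of Cfd were seen, followed the same libraries. Adiponectin (Adipoq) had 0, 16 and 1 reads in controls and 0, 0 and 14 with Wnt1. Perilipin 1 (Plin1) had 0, 15 and 0 in controls and 1, 1 and 12 with Wnt1. Of the 7 adipocyte genes, Retn and Cidec were also highest in those 2 libraries, Lep had 1 read in all, and Car3 and Thrsp were lower with Wnt1. Their part in the level of Cfd was not tested.

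Promoters are printed for C3, Cfp and the C1q genes C1qb and C1qc because these transcripts rose together, each as 250 bases before and 50 bases after the RefSeq start on GRCm38.p6, read 5′ to 3′ on the gene's strand. Capitals mark matches to any of 7 searched motifs, on either strand. The intervals, all on the minus strand, are chr17:57228087-57228386 (C3), chrX:20931506-20931805 (Cfp), chr4:136886151-136886450 (C1qb) and chr4:136892865-136893164 (C1qc).
C3: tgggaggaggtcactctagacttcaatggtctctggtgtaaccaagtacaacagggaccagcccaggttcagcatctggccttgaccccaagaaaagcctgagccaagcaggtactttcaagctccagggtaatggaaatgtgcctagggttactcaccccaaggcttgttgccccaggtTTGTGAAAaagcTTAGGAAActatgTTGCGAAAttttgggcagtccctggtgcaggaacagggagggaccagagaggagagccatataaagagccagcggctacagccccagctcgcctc
Cfp: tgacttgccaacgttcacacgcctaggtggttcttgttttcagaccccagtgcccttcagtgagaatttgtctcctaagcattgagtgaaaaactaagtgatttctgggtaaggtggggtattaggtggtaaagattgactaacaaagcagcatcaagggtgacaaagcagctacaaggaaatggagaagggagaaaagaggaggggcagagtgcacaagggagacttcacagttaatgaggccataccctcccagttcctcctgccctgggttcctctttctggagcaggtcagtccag
C1qb: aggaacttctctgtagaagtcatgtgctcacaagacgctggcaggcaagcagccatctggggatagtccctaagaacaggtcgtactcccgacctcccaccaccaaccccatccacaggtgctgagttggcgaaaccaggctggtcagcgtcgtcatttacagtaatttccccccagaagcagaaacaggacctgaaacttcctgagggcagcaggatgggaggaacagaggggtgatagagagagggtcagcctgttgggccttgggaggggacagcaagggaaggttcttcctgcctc
C1qc: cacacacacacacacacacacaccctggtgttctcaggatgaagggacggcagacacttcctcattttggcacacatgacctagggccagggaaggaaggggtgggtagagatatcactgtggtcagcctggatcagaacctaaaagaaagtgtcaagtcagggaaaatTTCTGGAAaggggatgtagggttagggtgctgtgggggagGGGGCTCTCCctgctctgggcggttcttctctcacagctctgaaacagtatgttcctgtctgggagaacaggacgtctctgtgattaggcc

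The C3 window held 3 matches to the C/EBP consensus TTNNGNAA, which begin 70, 58 and 45 bases before the start. C1qc held 1 such match, 81 bases before the start, and 1 match to the NF-kB consensus at 41 bases. The windows of Cfp and C1qb held no match to any of the 7. Among all 32851 promoters of this length in the table, 40.7% held a C/EBP match and 8.46% an NF-kB match. Of the 33 members with a promoter there, 14 held a C/EBP match and 2 (C1qc and F8) an NF-kB match. A member was counted if any of its promoters matched, while the percentages are shares of single promoters, so the units differ. The AP-1 letters TGANTCA were found in 6 members (7.81% of all promoters) and TTCNNNGAA, the STAT consensus, in 3 (8.30%). The ISRE consensus was found in 2 members (3.44%). The TCF/LEF letters CTTTGAT were found in C5ar2 and Masp2 (3.73%). No member's window held the CRE/ATF letters TGACGTCA, which 1.79% of all promoters did. In the printed windows no match overlaps one to another motif, and the C3 match nearest the start and the F2 match printed further on fit their consensus on both strands. A match is a description of letters and not of binding.

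**Figure D3:**
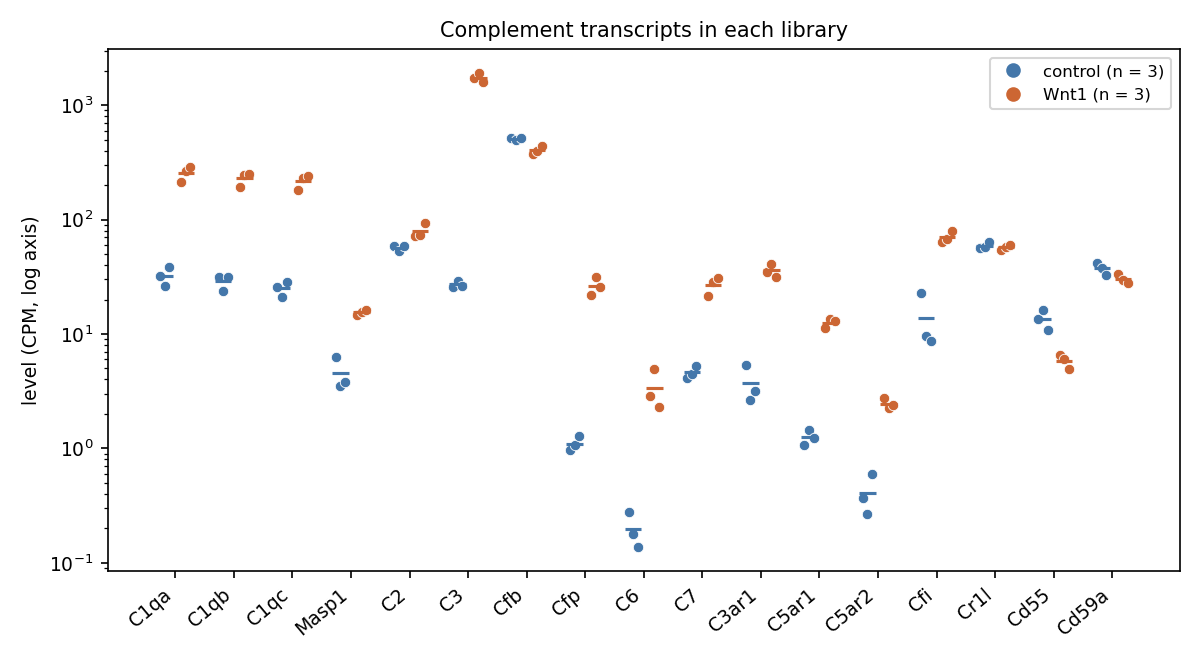
Level in CPM (log axis) of 17 complement genes in each library, with a dot per library and a bar at the group mean; blue is control and orange is Wnt1. C3 went from 27.1 to 1742 CPM on average, while Cr1l stood at 59.2 and 57.4 CPM.

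Terminal components, which build the membrane attack pore, were low in kidney and changed unequally. C7 stood at 4.14, 4.48 and 5.20 CPM in controls and 21.4, 28.4 and 31.0 CPM with Wnt1 (2.55 ± 0.20, adjusted p = 8.06e-05). C6 went from 0.276, 0.177 and 0.137 CPM to 2.85, 4.89 and 2.28 CPM (4.05 ± 0.46, adjusted p = 0.000339). Both rose without overlap, and both genes lie on chromosome 15, separated by 173794 bases. Hc, the mouse gene for C5, had 3, 1 and 1 reads in controls and 8, 10 and 5 with Wnt1, and C9 had 3, 8 and 5 and then 6, 6 and 2. Neither passed the filter, and with no filter neither was called (edgeR adjusted p = 0.084 and 0.598).

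Receptors for the anaphylatoxins, the small fragments of C3 and C5 that attract and activate leukocytes, rose. C3ar1 stood at 5.38, 2.66 and 3.20 CPM in controls and 35.1, 41.2 and 31.3 CPM with Wnt1 (3.26 ± 0.28, adjusted p = 0.000114). C5ar1, the main C5a receptor, went from 1.06, 1.46 and 1.23 CPM to 11.2, 13.5 and 13 CPM (3.32 ± 0.21, adjusted p = 3.83e-05). C5ar2, the second C5a receptor, went from 0.368, 0.266 and 0.593 CPM to 2.76, 2.23 and 2.39 CPM (2.58 ± 0.34, adjusted p = 0.000735). No Wnt1 library overlapped a control for these 3 genes. C5ar1 and C5ar2 are neighbours on chromosome 7, 2588 bases apart. Relative to the summed macrophage markers, C3ar1 was 0.0122 to 0.0244 in controls and 0.0219 to 0.0269 with Wnt1, ranges that overlap. Neutrophils also carry these receptors. Of their 10 listed markers 4 were tested and rose, and all 10 summed to 1.20 to 1.52 CPM and 13.5 to 18.6 CPM, ranges that do not overlap. S100a9, a calcium-binding protein abundant in neutrophils, had 0, 4 and 4 reads in controls and 121, 119 and 78 with Wnt1. The others that rose were S100a8, its partner, Cxcr2, a chemokine receptor, and Csf3r, the receptor for granulocyte colony-stimulating factor. Retnlg, under the filter, had 0, 1 and 0 reads and then 20, 7 and 11. Ly6g and the granule genes Mpo, Elane and Camp had at most 1 read in any library. The part of neutrophils in the receptors' rise was not tested.

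Cr2, the complement receptor of B cells and follicular dendritic cells, was measured at 0.964 ± 0.290 CPM in controls and 0.727 ± 0.305 CPM with Wnt1 and was not called (-0.40 ± 0.42, adjusted p = 0.492). In the same libraries 3 of 4 tested B cell markers rose, with Cd22 and Ighm among them, and Ms4a1 and Pax5 stood at most at 0.248 CPM. Vsig4, a phagocytic complement receptor of resident macrophages, had at most 2 reads in any library. At 3 reads, the limit that a count of 0 allows lay between 0.0951 and 0.138 CPM per library, and Vsig4 lay below it in every library of both groups.

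Complement regulators, which protect host cells, did not rise as a group: 1 rose, 1 fell and 3 were not called. Cfi encodes factor I, the plasma protease that inactivates C3b. It stood at 22.7, 9.57 and 8.76 CPM in controls and 63.4, 67.9 and 79.5 CPM with Wnt1, and rose by 2.36 ± 0.36 on the log2 scale (adjusted p = 0.00174). Control replicate 1 was above the other controls, and without it the value was 2.99. Cd55, decay-accelerating factor, a membrane protein that breaks up the C3 convertases, fell. Its levels were 13.4, 16.2 and 10.9 CPM in controls and 6.59, 5.98 and 4.97 CPM with Wnt1, with no overlap (-1.21 ± 0.21, adjusted p = 0.00244).

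Cr1l encodes Crry, the main rodent membrane regulator of C3 in kidney. Its levels were 56.5, 57.8 and 63.2 CPM in controls and 54.4, 57.6 and 60.1 CPM with Wnt1, so the groups overlapped (-0.04 ± 0.12, adjusted p = 0.798). The value changed sign with the scaling: with library totals it was 0.38 (adjusted p = 0.0196) and on log2(FPKM + 1) 0.40 (0.0111), near the shift of all genes under those scalings (0.47 and 0.36); over the alternatives its adjusted p ran from 0.0109 to 0.994. Cd59a, which blocks the membrane pore, had 37.5 ± 4.63 and 30.3 ± 3.09 CPM and was not called (-0.31 ± 0.15, adjusted p = 0.135), but it was called lower without both libraries numbered 3 (-0.34, adjusted p = 0.0212; range over the alternatives 0.0212 to 0.559), and its sign turned to 0.11 with library totals and on log2(FPKM + 1). Cd46, membrane cofactor protein, whose expression in mice is known mainly from the testis, was at 1.10 ± 0.160 and 1.44 ± 0.716 CPM (0.40 ± 0.41, adjusted p = 0.47). Its exons overlap A330023F24Rik on the opposite strand by 1079 bases, and the strand used in counting is not given. Cd55 and Cd59a each have a close copy, Cd55b and Cd59b, and no source used here says how shared reads were divided.

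Of the 8 clotting factor genes 5 rose and 2 fell. F3 encodes tissue factor, the cell-surface trigger of clotting. It stood at 20.6, 19.9 and 15.9 CPM in controls and 46.1, 59.2 and 35.1 CPM with Wnt1 (1.32 ± 0.21, adjusted p = 0.00193). F7, the partner of tissue factor, had 0, 0 and 1 reads in controls and 26, 26 and 24 with Wnt1. It was called higher (edgeR adjusted p = 0.000524). Over its single control read the ratio was 58.4, with an exact 95% interval of 10.2 to 2338 that, like the one for Masp2, covers counting error only. F10, the next protease, went from 0.414, 0.487 and 0.639 CPM to 2.12, 2.44 and 2.12 CPM (2.11 ± 0.29, adjusted p = 0.000848). F7 and F10 lie 1498 bases apart on chromosome 8 in the same orientation, and Proz, the gene for protein Z, follows after 4237 bases. Proz, a vitamin K-dependent cofactor that helps inhibit factor X, went the other way, from 15.2 ± 0.961 to 2.63 ± 0.258 CPM (-2.53 ± 0.17, adjusted p = 5e-05).

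F13a1 encodes the enzyme subunit of factor XIII, which crosslinks fibrin and is made by macrophages and platelets. Among members with a fitted fold only C3 and Cfp rose more. It went from 0.506, 0.886 and 0.548 CPM to 12.7, 18.8 and 9.26 CPM (4.38 ± 0.36, adjusted p = 0.000105). Relative to the macrophage marker sum it was 0.0023 to 0.00406 in controls and 0.00648 to 0.0122 with Wnt1, ranges that do not overlap. Of 5 tested platelet and megakaryocyte markers 2 rose, Pf4 (0.755 ± 0.158 to 8.05 ± 1.16 CPM) and Itgb3 (1.72 ± 0.602 to 6.15 ± 0.878 CPM). Itga2b fell, from 5.37 ± 0.434 to 2.14 ± 0.763 CPM, and 2 were not called. All 8 listed summed to 7.03 to 10.2 CPM in controls and 15 to 21.3 CPM with Wnt1. Pf4 and Itgb3 gave most of that rise. Gp9, Gp6 and Treml1 stood at or near 0 throughout. F13b, which encodes the carrier subunit of factor XIII and is no member, fell from 159 ± 36.2 to 24 ± 8.72 CPM (-2.73 ± 0.30, adjusted p = 0.000373), so the transcripts of the 2 subunits moved in opposite directions.

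F2, the gene for prothrombin, had 18, 17 and 43 reads in controls and 0 in all Wnt1 libraries. It was called lower (edgeR adjusted p = 0.00218). With 3 reads per library as the limit that 0 allows, it was at least 11.2-fold lower. Its promoter is printed as the counterpart to those of the genes that rose (GRCm38.p6, chr2:91636408-91636707, minus strand), with capitals on its single match, to the AP-1 letters, which begins 180 bases before the start.
F2: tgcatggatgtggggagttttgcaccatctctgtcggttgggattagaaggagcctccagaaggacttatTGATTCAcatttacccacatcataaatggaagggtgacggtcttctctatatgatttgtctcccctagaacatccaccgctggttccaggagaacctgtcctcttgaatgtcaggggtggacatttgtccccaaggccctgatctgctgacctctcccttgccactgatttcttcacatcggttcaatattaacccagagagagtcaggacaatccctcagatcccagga

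F5, the cofactor of factor X, fell from 19.6, 8.73 and 9.04 CPM to 3.61, 4.43 and 3.19 CPM (-1.73 ± 0.35, adjusted p = 0.00555). Control replicate 1 stood highest, and no Wnt1 library reached a control. On log2(FPKM + 1) with no filter it was not called (-0.59, adjusted p = 0.0643; range over the alternatives 3.63e-06 to 0.0643). F8, the cofactor of factor IX, was at 7.68, 8.20 and 4.43 CPM in controls and 7.51, 8.11 and 2.31 CPM with Wnt1. The replicate 3 libraries were the lowest of both groups, and F8 was not called (-0.18 ± 0.46, adjusted p = 0.79).

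Vwf, the endothelial and platelet adhesion factor, was at 5.70, 8.02 and 6.71 CPM in controls and 10.1, 12.9 and 39.2 CPM with Wnt1, where replicate 3 stood far above the others. The rise was called (1.60 ± 0.50, adjusted p = 0.0353). Dropping that library gave a log2 value of 0.75 (adjusted p = 0.0159). Leaving out control replicate 1, 2 or 3 ended the call, with adjusted p of 0.101, 0.0734 and 0.0862 (range over the alternatives 0.00125 to 0.101), and so did the fits on log2(FPKM + 1) (0.96 with adjusted p = 0.0669, and 0.96 with 0.0976 when no filter was applied). Endothelial markers did not rise with it: of 9 tested, 5 fell and 4 were not called, and they summed to 805 to 995 CPM in controls and 493 to 711 CPM with Wnt1, of which Wnt1 replicate 3 held the 711.

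**Figure D4:**
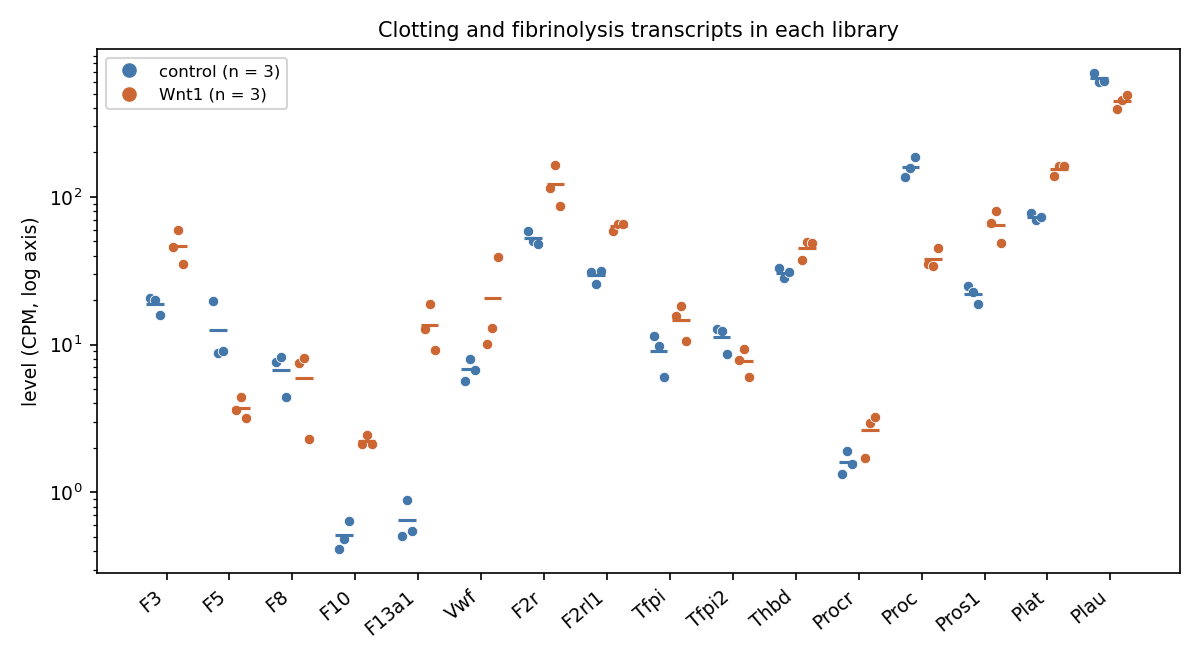
Level in CPM (log axis) of 16 clotting and fibrinolysis genes in each library, with a dot per library and a bar at the group mean; blue is control and orange is Wnt1. Proc went from 159 to 38.1 CPM on average, and Vwf shows 1 Wnt1 library at 39.2 CPM.

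Both protease-activated receptors among the members, through which clotting proteases signal to cells, rose about 2-fold. F2rl1 (PAR2), found on tubular epithelium, stood at 30.8, 25.7 and 31.6 CPM in controls and 59.0, 65.6 and 65.4 CPM with Wnt1 (1.11 ± 0.14, adjusted p = 0.000501). F2r (PAR1), the thrombin receptor, stood at 58.8, 50.2 and 48.0 CPM and then at 115, 164 and 86.8 CPM (1.22 ± 0.23, adjusted p = 0.00402). Neither overlapped between groups. They lie 76575 bases apart on chromosome 13.

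Anticoagulant genes moved in different directions. Proc encodes protein C, the zymogen that inactivates factors V and VIII once activated. At 137, 156 and 185 CPM it was well expressed in controls, and it fell to 35.0, 34.1 and 45.3 CPM (-2.06 ± 0.18, adjusted p = 0.000115). Its cofactor protein S, Pros1, rose from 24.9, 22.8 and 18.7 CPM to 66.6, 79.8 and 48.4 CPM (1.55 ± 0.21, adjusted p = 0.000814). Neither gene overlapped between groups.

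Thbd, thrombomodulin, the endothelial receptor on which thrombin activates protein C, stood at 32.8, 28.4 and 30.9 CPM in controls and 37.3, 49.3 and 48.6 CPM with Wnt1. The rise was called (0.55 ± 0.15, adjusted p = 0.0203). The adjusted p was 0.0517 without control replicate 2 and 0.0727 without Wnt1 replicate 2, within a range of 0.00148 to 0.0727 over the alternatives. Procr, the endothelial protein C receptor, was at 1.60 ± 0.289 and 2.62 ± 0.804 CPM and was not called (0.71 ± 0.31, adjusted p = 0.106). Its rise was called with library totals (1.13, adjusted p = 0.0182) and on log2(FPKM + 1) (0.63, 0.016), so the call depended on scaling. Without Wnt1 replicate 1 the value was 0.94, with an adjusted p of 0.0458 in a range of 0.0157 to 0.254 over the alternatives.

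Tfpi, tissue factor pathway inhibitor, was at 11.4, 9.75 and 6.03 CPM in controls and 15.5, 18.2 and 10.6 CPM with Wnt1 and was not called (0.70 ± 0.28, adjusted p = 0.0847). In both groups replicate 3 was the lowest. The call depended on scaling: with library totals the value was 1.12 (adjusted p = 0.0212) and on log2(FPKM + 1) 0.90 (0.0161), both called, beside the shift of all genes given for Cr1l. Without Wnt1 replicate 3 it was 0.89 (adjusted p = 0.0255). Without both libraries numbered 3 its rise of 0.66 was called (adjusted p = 0.00431, against 0.00431 to 0.253 over the alternatives). Tfpi2, a related inhibitor with broader targets, was at 11.2 ± 2.26 and 7.77 ± 1.68 CPM (-0.52 ± 0.23, adjusted p = 0.105) and was called lower without those libraries (-0.54, adjusted p = 0.0116; range over the alternatives 0.0116 to 0.746).

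Fibrinolysis genes shifted between the plasminogen activators. Plat, tissue-type activator, stood at 77.7, 70.1 and 72.5 CPM in controls and 139, 162 and 161 CPM with Wnt1 and rose by 1.07 ± 0.12 on the log2 scale (adjusted p = 0.000406). Plau, urokinase, which tubules secrete into urine, stood at 688, 602 and 612 CPM and then at 392, 451 and 492 CPM. It was called lower (-0.51 ± 0.14, adjusted p = 0.0184), but with library totals the value was -0.09 (adjusted p = 0.549), and on log2(FPKM + 1) it was -0.09 (0.553); over the alternatives the adjusted p ran from 0.00187 to 0.57. Without control replicate 1 or Wnt1 replicate 1 it was also not called (0.0709 and 0.0738). The ratio of Plau to Plat in FPKM, which does not depend on scaling, was 9.10 to 9.55 in controls and 3.01 to 3.30 with Wnt1. Plg, plasminogen itself, had 6, 16 and 6 reads in controls and 5, 2 and 2 with Wnt1, too few to pass the filter.

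Per length, the make-up of these transcripts differed between groups. The members' FPKM values summed to 727 to 789 in controls and 1834 to 2206 with Wnt1. Plau (234 ± 20.7), Cfb (166 ± 4.41) and Proc (98.2 ± 15) were the highest 3 of the control means, in that order. In the Wnt1 mean C3 (422 ± 50.6) and the C1q genes C1qa (284 ± 40.1) and C1qb (243 ± 33.3) ranked above Plau (220 ± 22.2). C3 held 0.562% to 0.887% of the members' FPKM in controls, where it ranked 18 of 45, and 18.3% to 23.0% with Wnt1. The C1q chains together held 7.73% to 10.1% and then 33.6% to 38.8%.

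**Figure D5:**
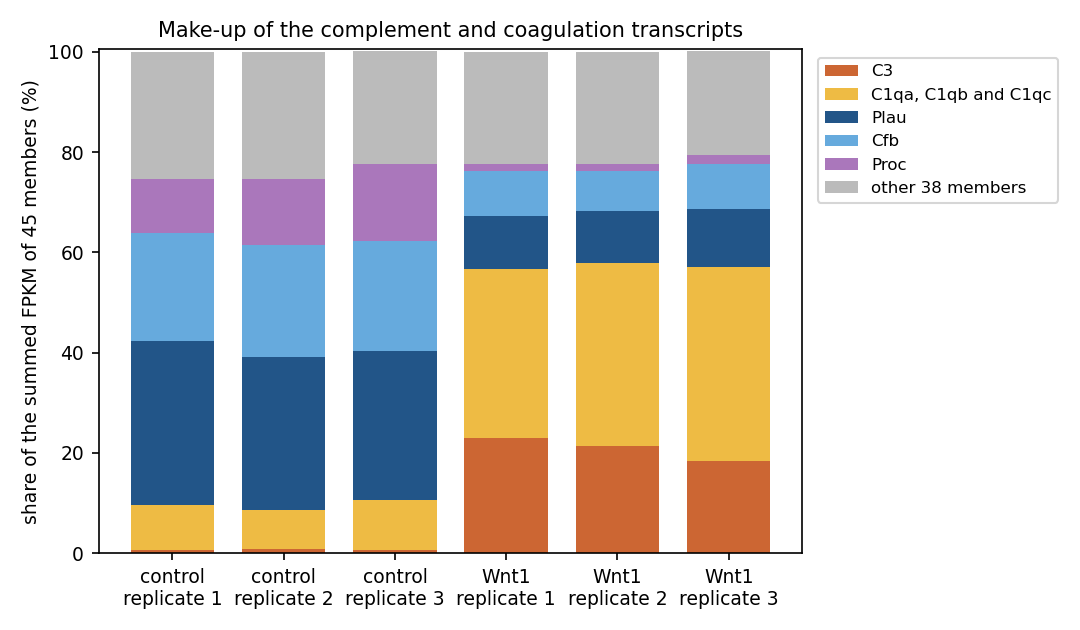
Stacked bars of the share (%) that C3, the 3 C1q chains, Plau, Cfb, Proc and the other 38 members took of the summed FPKM of all 45 members, 1 bar per library. C3 and C1q together fill most of each Wnt1 bar, while Plau, Cfb and Proc fill most of each control bar.

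The other complement and clotting genes were described from a list of 70, of which 67 were analysed and 48 passed the filter. Of these, 23 rose, 11 fell and 14 were not called, which is 47.9% higher and 22.9% lower beside the 22.4% and 18.7% of all tested genes. Their median log2 fold change was 0.54. The number lower was 7 without control replicate 1 or 2 and 17 without Wnt1 replicate 3. The proteases that work with C1q rose: C1s1 by 1.71 ± 0.17 and C1ra by 1.40 ± 0.18 on the log2 scale. C4b, their substrate, rose by 2.09 ± 0.29. Reads of C4b could be shared with its close copy C4a. Of the C8 subunits in the membrane pore, C8a fell from 24.6 ± 2.94 to 1.70 ± 0.372 CPM (-3.85 ± 0.22) and C8g from 10.4 ± 1.07 to 2.36 ± 0.704 CPM (-2.13 ± 0.26), where C6 and C7 of the same pore rose. C8b, also a C8 subunit, had 0 reads in every library of both groups. Among regulators and receptors 10 of 14 tested rose and the other 4 were not called. They included Clu, clusterin, a fluid-phase inhibitor of the pore, from 415 ± 31.0 to 2813 ± 307 CPM (2.76 ± 0.15), and the complement receptor 3 chains Itgam (4.69 ± 0.24, also 1 of the macrophage markers) and Itgb2 (2.41 ± 0.20). All 8 genes given with a fold change in this paragraph had edgeR adjusted p from 2.68e-05 to 0.00115.

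Of 15 other clotting genes tested, 4 rose, 6 fell and 5 were not called. The share higher, 26.7%, was near the 22.4% of all tested genes, and the share lower was 40% against 18.7%. The median log2 fold change of this list was -0.25. Those that rose included the fibrinogen chains, the substrate of thrombin: Fga by 2.0 ± 0.21, Fgb by 4.0 ± 0.55 and Fgg by 3.50 ± 0.32. The value of Fgb was 4.69 without control replicate 1 and 3.40 without Wnt1 replicate 2. Kng2, a kininogen of the contact system, fell (-0.85 ± 0.17), and on log2(FPKM + 1) with no filter it was not called (-0.45, adjusted p = 0.0665, in a range of 3.79e-05 to 0.0665 over the alternatives). Of 13 tested inhibitors and receptors of clotting and fibrinolysis, 6 rose (46.2%) and 3 fell (23.1%). Serpina10, the protein Z-dependent inhibitor of factor X, went from 1.66 ± 0.141 to 84.5 ± 7.39 CPM (5.66 ± 0.17) while its cofactor Proz fell. Serpine2, protease nexin 1, rose by 2.29 ± 0.16. Serpinf2, the inhibitor of plasmin, fell from 397 ± 73.8 to 59.6 ± 15.2 CPM (-2.74 ± 0.23). Hrg, a plasma glycoprotein that binds plasminogen, fell (-5.77 ± 0.62, and -7.32 without Wnt1 replicate 3). Serpinc1, antithrombin, was called lower (-2.58 ± 0.77, adjusted p = 0.0293; -3.59 without Wnt1 replicate 3). Leaving out any control library or Wnt1 replicate 1 ended that call, as did library totals, with adjusted p from 0.0504 to 0.0965 (range over the alternatives 0.000792 to 0.0965). The other 8 genes given with a fold change in this paragraph had edgeR adjusted p from 4.94e-06 to 0.00561.

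Several of the members that fell or had few reads, such as F2, Proc, Mbl2, Plg and F5, encode plasma proteins known mainly from the liver. The liver makes most circulating proteins of both systems. Members called higher also encode plasma proteins, C3, F7, F10 and Cfi among them. The tissue source of these transcripts was not tested. Of 12 hepatocyte markers listed, 11 were analysed and 10 tested; 1 rose (Fgb) and 5 fell, and most of their summed level (2878 to 3588 CPM in controls, 867 to 1106 CPM with Wnt1) came from Cyp2e1 and Hnf4a, which the kidney tubule also expresses. Albumin (Alb) was at 11.2, 8.37 and 8.63 CPM in controls and 2.06, 0.673 and 1.67 CPM with Wnt1, and Ahsg, a plasma protein of hepatocytes, had at most 3 reads in any library. Of 11 proximal tubule markers, 10 fell and 1 was not called, with a median log2 fold change of -2.12. All 7 tubule injury markers rose (median 6.22), as did 9 of 10 fibroblast and mural cell markers (median 1.74). The part of these cell types in the members' changes was not tested.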

How the data were processed

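Poly(A)-selected RNA from 6 mouse kidney libraries (3 control, 3 Wnt1, all batch 1 in the labels) was sequenced. The authors deposited expected counts and FPKM per gene. Tools named in the submitters' processing notes are RSEM, HISAT2, StringTie (version 1.3.1), Bowtie2 (2.2.8) and fastp (0.18.0), with the build mm10. Annotation, strand setting and treatment of multi-mapped reads: not given in the sources used here. Expected counts (9.02% not whole, tolerance 1e-06) were rounded and tested with edgeR 4.0.16 in R 4.3.3: filterByExpr, TMM scaling, robust quasi-likelihood test, Benjamini-Hochberg adjustment over 14432 genes, calls at an adjusted p under 0.05. Total counts were 23585031 to 27218096 per library. The TMM factors were 0.848 to 0.879 in controls and 1.12 to 1.19 with Wnt1. At the library sizes scaled by these factors, the floor of 3 counts lay at 0.0951 to 0.138 CPM. Standard errors (SE) are of the log2 fold change, and intervals of count ratios are exact at 95% and, like floors, cover counting error only. CPM are the counts divided by the TMM-scaled library size, and the deposited FPKM were used only to compare levels between genes and as an alternative. Gene coordinates are from GENCODE M21 (all 45 members matched) and promoters from RefSeq on GRCm38.p6 (33 matched).

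All 45 members are named. Full values are given for up to 3 called members per arm with the smallest p and for called members that oppose their arm. Of other pathway genes, up to 3 called ones per list and direction are named, apart from a gene not reported here. Members, lists and tests were chosen with earlier results of these data known. Replicates were numbered in accession order. Alternatives used DESeq2 1.42.0, limma 3.58.1 on log2(FPKM + 1) and log2(FPKM + 0.1), other scalings and filters, and left-out libraries. The calculation was checked on simulated data.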

Additional observations from a re-analysis of the deposited data

How the results depend on the processing

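Of 29 called members, 25 stayed past the threshold in the same direction in every one of the 16 alternatives that tested them, and Vwf, Thbd, Plau and F5 were lost in at least 1. Members called higher numbered 21 to 26 over the alternatives (23 in the report), and 21 to 24 with each library left out. Members called lower numbered 3 with log2(FPKM + 1) and 3 with log2(FPKM + 0.1), where 31 members were tested, and 5 to 7 with each library left out. Without both libraries numbered 3, 24 members were higher and 9 lower, with Tfpi, Cd59a, Cfb and Tfpi2 gained. The value of Cr1l, -0.04 in the report, reversed to 0.38 with library totals and to 0.40 in each of the 3 FPKM fits. On log2(FPKM + 1), which understates the change of low genes, C6 was at 1.10 (no filter), C5ar2 at 0.74 (no filter), F10 at 0.96, F13a1 at 2.09, Cfp at 3.62 and Hrg at -1.37, with their direction and call kept. Cfb was called lower in 4 alternatives (adjusted p 0.00761 to 0.565 over all).

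Other pathway genes called lower numbered 7 to 17 with each library left out. Over all genes, those called higher numbered 6348 with library totals, 5144 with log2(FPKM + 1), 5139 with log2(FPKM + 0.1) and 5949 with no FPKM filter, against 3239. Those called lower numbered 1288, 1238, 1234 and 1273 in the same order and 4431 without both libraries numbered 3, against 2697. With each library left out they ran from 1797 (without control replicate 2) to 3975. For these counts and for Cr1l the cause was not tested.

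No paired analysis was possible because the titles' numbers share fewer than 2 values between the groups. Changes in Mbl2, Cfd, Hc, C9, Vsig4 and Plg were limited by few reads, and 3 libraries per group limit what is called among small changes.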
